A study of Mus musculus with 12 samples.

Results

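The genes described here are 42 interferon-inducible genes of the mouse, chosen by name and followed through all 12 RNA-seq libraries of a study of liver without Cdk1. Cdk1 is the cyclin-dependent kinase that drives mitosis. The 42 symbols filled 43 of the 47069 rows of the deposited expression table, because Gbp6 stood there on 2 overlapping gene models, one of which (ENSMUSG00000079362) GENCODE M21 names Gm43302 and which is called so below. All 43 rows were among the 17386 that entered the tests, those with a mean of at least 0.1 FPKM (fragments per kilobase of transcript, scaled to the size of the library) over the libraries. Cdk1 Liv-/- mice carried Cdk1 flox/flox alleles and Albumin-Cre, a transgene that is active in hepatocytes. The study found Cdk1 partly deleted already in embryonic hepatoblasts, and in Cdk1 Liv-/- liver its transcript staining was left in interstitial cells. Whether every other cell type of the liver keeps Cdk1 was not tested. The wild type (WT) mice were labelled only as such. Poly(A) RNA came from postnatal day 14 as isolated hepatocytes and as whole liver, with 3 libraries for each genotype and compartment, giving 4 groups. The study's methods state biological replication for its experiments in general, and the labels do not say whether the 2 compartments came from the same mice.

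Interferons are secreted proteins that bind receptors on the cell surface, and the receptor-bound Janus kinases then switch on transcription factors. Factors that hold IRF9 bind the interferon-stimulated response element, and those switched on by interferon gamma bind the gamma-activated site. The genes switched on in this way encode sensors and inhibitors of viruses, GTPases that attack the vacuoles of intracellular parasites, and the machinery that loads peptides onto MHC class I. In liver, both hepatocytes and the resident macrophages, the Kupffer cells, respond to interferon.

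Library depth could be estimated only from the steps between the low FPKM values, at 34.7 to 50 reads per FPKM and kilobase. Cdk1 itself was lower in all Cdk1 Liv-/- libraries, at 6.87 to 11.8 FPKM against 20.4 to 28.2 in WT hepatocytes and at 11.66 to 14.2 against 21.5 to 25.3 in whole liver, and no library went against its genotype. The study's methods name only male mice, but Cdk1 Liv-/- liver replicate 3 listed Xist at 158 FPKM and 4 Y-linked genes at 0. In the Cdk1 Liv-/- hepatocyte libraries the sum of these 4 genes ran from 53.05 to 59.91 FPKM, and Xist was at most 0.05. None of them therefore appears to share a mouse with that liver library. Among hepatocyte libraries, WT replicate 3 held the most Kupffer cell RNA, with 9 markers summing to 578 FPKM against 171 and 316 in the other WT and 126 to 197 in the Cdk1 Liv-/- hepatocyte libraries. In such bulk RNA, fewer cells of a type and less RNA per cell cannot be told apart. For the interferon-inducible genes the library that stood apart was Cdk1 Liv-/- liver replicate 1, and the whole liver differences by genotype are therefore given with and without it.

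The promoter windows of RefSeq (GRCm38.p6, 250 bases before to 50 after the transcription start) were available for 34 of the 42 symbols, in 40 windows. An interferon-stimulated response element, searched on both strands as 2 copies of GAAA separated by 2 bases of any kind, lay in 21 of these 40 windows (52.5%) and in 3.44% of all 32851 windows. A gamma-activated site, searched on both strands as TTCNNNGAA, lay in 10 (25.0%) against 8.30% of all windows. The response element was found in all 6 windows of the 5 TRIM genes, in 6 of 7 windows of the interferon-inducible GTPases, in both RNA sensors and in Isg15. It was found in none of 5 windows of the antigen processing genes and in 1 of 8 of the transcription factors, which says only that these letters are not in those windows. The stretch from 100 bases before to 30 after the start is printed for 12 genes, with both kinds of motif in capitals. The first 5 are the TRIM genes, shown because they alone among the 42 were called changed in both compartments or neighbour such genes. Trim12a lies at chr7:104315466-104315595 on the minus strand, Trim5 at chr7:104288077-104288206 (minus), Trim34a at chr7:104244357-104244486 (plus), Trim30d at chr7:104507820-104507949 (minus) and Trim30a at chr7:104465164-104465293 (minus).
Trim12a: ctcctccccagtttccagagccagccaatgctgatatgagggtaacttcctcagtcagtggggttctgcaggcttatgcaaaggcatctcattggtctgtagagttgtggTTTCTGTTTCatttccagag
Trim5: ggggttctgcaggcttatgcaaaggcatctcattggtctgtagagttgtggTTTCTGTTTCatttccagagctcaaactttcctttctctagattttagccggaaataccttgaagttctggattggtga
Trim34a: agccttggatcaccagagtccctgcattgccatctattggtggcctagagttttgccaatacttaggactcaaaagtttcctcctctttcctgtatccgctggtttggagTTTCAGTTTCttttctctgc
Trim30d: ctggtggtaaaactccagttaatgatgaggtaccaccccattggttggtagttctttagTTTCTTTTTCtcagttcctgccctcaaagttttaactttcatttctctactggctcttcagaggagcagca
Trim30a: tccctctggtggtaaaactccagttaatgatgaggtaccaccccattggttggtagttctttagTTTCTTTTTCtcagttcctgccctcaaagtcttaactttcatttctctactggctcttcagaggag

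Each of these 5 stretches holds 1 response element, on the reverse strand as printed. The stretches of Trim12a and Trim5 share an identical run of 71 bases and those of Trim30d and Trim30a one of 89 bases, so these matches are not independent of one another.

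The next 7 stretches belong to genes that were highest in Cdk1 Liv-/- liver replicate 1. They lie on chromosome 11 for Igtp (chr11:58199456-58199585, plus), Irgm2 (chr11:58214877-58215006, plus), Irgm1 (chr11:48871391-48871520, minus) and Irf1 (chr11:53769914-53770043, plus), on chromosome 3 for Gbp2 (chr3:142620563-142620692, plus) and Gbp7 (chr3:142530236-142530365, plus), and on chromosome 4 for Isg15 (chr4:156200789-156200918, minus).
Igtp: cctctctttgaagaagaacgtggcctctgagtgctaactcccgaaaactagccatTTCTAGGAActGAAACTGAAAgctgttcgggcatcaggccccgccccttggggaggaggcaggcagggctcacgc
Irgm2: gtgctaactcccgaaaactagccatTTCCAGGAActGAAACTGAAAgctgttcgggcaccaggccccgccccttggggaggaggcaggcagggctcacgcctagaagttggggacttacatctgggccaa
Irgm1: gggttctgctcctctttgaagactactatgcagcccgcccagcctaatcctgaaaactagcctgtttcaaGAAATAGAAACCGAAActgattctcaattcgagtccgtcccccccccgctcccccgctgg
Gbp2: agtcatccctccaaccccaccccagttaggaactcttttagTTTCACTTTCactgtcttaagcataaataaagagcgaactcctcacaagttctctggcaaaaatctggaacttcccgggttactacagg
Gbp7: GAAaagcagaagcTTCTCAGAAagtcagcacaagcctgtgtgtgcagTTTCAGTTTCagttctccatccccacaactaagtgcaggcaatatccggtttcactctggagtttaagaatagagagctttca
Isg15: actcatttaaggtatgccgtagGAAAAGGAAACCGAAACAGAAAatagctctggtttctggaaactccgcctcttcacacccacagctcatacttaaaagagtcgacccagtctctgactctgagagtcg
Irf1: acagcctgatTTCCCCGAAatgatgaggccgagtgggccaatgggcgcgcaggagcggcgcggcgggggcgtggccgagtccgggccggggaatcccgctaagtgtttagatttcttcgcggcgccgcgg

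Igtp and Irgm2, neighbouring genes that encode immunity-related GTPases, hold a gamma-activated site directly before a response element and share a run of 41 identical bases. Isg15, which encodes a ubiquitin-like modifier, holds 3 overlapping response elements and Irgm1 holds 2, Gbp2 holds 1, and Gbp7 holds 1 response element beside 2 gamma-activated sites, the first of which is cut by the edge of the stretch. Irf1, itself a transcription factor for the others, holds a gamma-activated site and no response element.

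In hepatocytes the question was which interferon-inducible genes differ when the hepatocytes themselves lack Cdk1. A set of 4 neighbouring TRIM genes were far lower in Cdk1 Liv-/- hepatocytes, and no member was called higher. A gene was called when the Benjamini-Hochberg adjusted p of limma was at most 0.1 and the difference in log2(FPKM + 0.5) at least 1 in size. By this rule 0 of 43 rows were higher, where 4.20% of all tested genes were, and 4 were lower, where 2.17% of all were. The list was drawn up with earlier results of these data known, and these 4 are neighbours. Such counts therefore do not test the list as a set, here or in the comparisons below. At the adjusted p alone 3 rows were higher (12.1% of all genes) and the same 4 lower (6.61% of all), and 11 had an unadjusted p below 0.05, as did 28.4% of all genes. The median difference was -0.00 over the 43 rows (lowest -2.99, highest 0.52), 0.04 over the 38 rows outside the TRIM genes and 0.05 over all genes. Of these 38 rows 15.8% had an unadjusted p below 0.05, and whether they differ from the rest of the transcriptome was not tested. Over the 43 rows the difference was positive for 21 and negative for 22.

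TRIM proteins are ring-finger ubiquitin ligases, several of which restrict retroviruses, and the 5 listed ones (Trim34a, Trim5, Trim12a, Trim30a, Trim30d) lie in one cluster on chromosome 7 (GRCm38, chr7:104244457-104507849). Trim12a, a mouse relative of the retroviral restriction factor TRIM5, stood at 4.17, 2.35 and 4.58 FPKM in WT hepatocytes and at 0.02, 0.01 and 0.01 in Cdk1 Liv-/- hepatocytes. In whole liver it stood at 6.39, 6.04 and 6.17 in WT and was listed at 0 in all 3 Cdk1 Liv-/- libraries. The 6 Cdk1 Liv-/- values are thus at the bottom of the measurable range, worth an estimated 0.0 to 3.0 reads over its longest transcript against 340 to 994 in WT. The difference in log2(FPKM + 0.5) was -2.99 ± 0.24 (SE) in hepatocytes (adjusted p = 0.00204, limma) and -3.74 ± 0.07 in whole liver (adjusted p = 3.02e-05), sizes that depend on the pseudocount and are not folds of expression. Without Cdk1 Liv-/- liver replicate 1 the whole liver difference was also -3.74 (adjusted p = 0.000646).

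Trim5 showed the same pattern at a lower level. It stood at 0.92, 0.53 and 0.62 FPKM in WT and at 0.02, 0.03 and 0.04 in Cdk1 Liv-/- hepatocytes, and at 1.02, 0.95 and 0.83 in WT and 0.07, 0.04 and 0.06 in Cdk1 Liv-/- whole liver. The groups did not overlap in either compartment, with differences of -1.15 ± 0.14 (adjusted p = 0.00671, limma) and -1.36 ± 0.08 (adjusted p = 0.000466), the latter -1.38 without Cdk1 Liv-/- liver replicate 1 (adjusted p = 0.00335). With a pseudocount of 1 both still passed the adjusted p but not the fold threshold, which such low values can miss by the pseudocount alone. Trim30d, a relative of the Toll-like receptor regulator Trim30a, fell from 2.46, 1.46 and 2.05 to 0.19, 0.11 and 0.21 FPKM in hepatocytes and from 2.68, 2.56 and 2.33 to 0.50, 0.17 and 0.28 in whole liver. Its differences were -1.88 ± 0.19 (adjusted p = 0.00378, limma) and -1.91 ± 0.16 (adjusted p = 0.00137), the latter -2.06 without Cdk1 Liv-/- liver replicate 1 (adjusted p = 0.00241).

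Trim34a was the most abundant of the 4 in Cdk1 Liv-/- libraries. Its FPKM was 2.90, 2.49 and 2.69 in WT and 0.57, 0.90 and 1.40 in Cdk1 Liv-/- hepatocytes, and 3.64, 4.08 and 4.35 in WT and 2.5, 1.27 and 0.97 in Cdk1 Liv-/- whole liver. The differences were -1.17 ± 0.23 (adjusted p = 0.0297, limma) and -1.19 ± 0.27 (adjusted p = 0.0216), again with no overlap, and the latter was -1.48 without Cdk1 Liv-/- liver replicate 1 (adjusted p = 0.00537). In hepatocytes Trim34a, like Trim5, fell short of the fold threshold with a pseudocount of 1 (-0.94), when 2 genes were called. It also lost its call without WT or Cdk1 Liv-/- hepatocyte replicate 1, when the hepatocyte count fell to 3, and without Cdk1 Liv-/- liver replicate 3 in whole liver, whereas Trim12a, Trim30d and Trim5 kept theirs in each of these leave-one-out fits. Trim30a, which dampens Toll-like receptor signalling, stood at 2.62, 1.46 and 4.05 FPKM in WT and 1.28, 1.25 and 0.97 in Cdk1 Liv-/- hepatocytes, without passing the test (-0.87 ± 0.32, adjusted p = 0.136, limma). It was called lower there only when WT hepatocyte replicate 2 was left out. In whole liver it stood at 4.22, 4.57 and 4.30 in WT and 4.09, 3.52 and 3.29 in Cdk1 Liv-/- libraries, a small difference that just passed (-0.24 ± 0.09, adjusted p = 0.0946, and -0.32, adjusted p = 0.0431, without Cdk1 Liv-/- liver replicate 1). This pass was lost with the replicate block (adjusted p = 0.16), with the same sum in every library (0.139), without the filter on low values (0.133) and without any other single whole liver library (0.169 to 0.222).

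**Figure D1:**
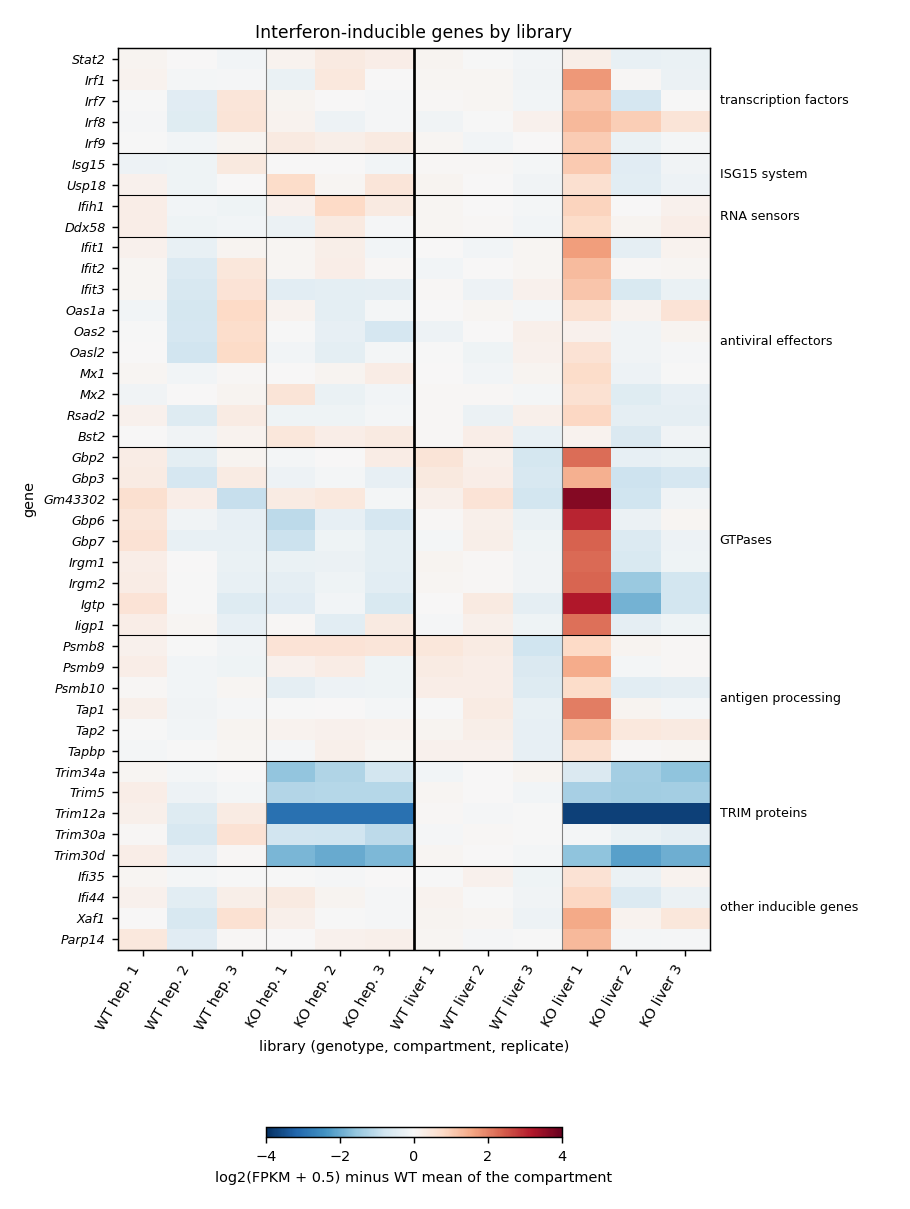
Heat map of the 43 rows (vertical, by role) in the 12 libraries (horizontal; KO, Cdk1 Liv-/-; hep., hepatocytes), coloured by log2(FPKM + 0.5) minus the WT mean of the same compartment, from -4 in blue to 4 in red. Trim12a, Trim5, Trim30d and Trim34a are blue in all 6 Cdk1 Liv-/- libraries, and the GTPases are deep red only in Cdk1 Liv-/- liver replicate 1.

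The TRIM genes of this cluster are close copies, and 3 neighbouring Trim genes outside the list moved the other way. Trim34b was listed at 0 in the 3 WT hepatocyte libraries and at 0.44, 0.56 and 0.49 FPKM in Cdk1 Liv-/- hepatocytes, and rose from 0.05, 0.05 and 0.03 to 1.41, 0.93 and 0.86 in whole liver (adjusted p = 0.00284 and 0.00198, limma). Trim12c rose from 2.96, 2.37 and 2.27 to 3.95, 4.31 and 4.49 in hepatocytes (0.65 ± 0.14, adjusted p = 0.0399, limma) and from 3.68, 3.73 and 3.28 to 10.2, 5.21 and 5.39 in whole liver (0.81 ± 0.25, adjusted p = 0.0542). Trim6 rose by 1.04 ± 0.24 in hepatocytes and by 0.90 ± 0.10 in whole liver (adjusted p = 0.0468 and 0.00311, limma), while Trim30b (-0.30 and -0.35) and Trim30c (-0.16 and 0.06) did not pass the test in either compartment. A small RNA gene within the span, Gm24846, was lower in whole liver, at 1.75, 0.42 and 3.18 FPKM in WT and listed at 0 in the Cdk1 Liv-/- libraries (adjusted p = 0.0279, limma, and 0.0657 without Cdk1 Liv-/- liver replicate 1). Without Cdk1 Liv-/- liver replicate 1 the whole liver differences were 1.36 for Trim34b, 0.52 for Trim12c and 0.81 for Trim6 (adjusted p = 0.00225, 0.0183 and 0.00645, limma). Genes that fell and genes that rose therefore lie between one another in the 263.4 kilobases that the 5 listed genes span, with Trim6 just outside.

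These neighbours were chosen after their values were seen, and the listed genes with earlier results of these data known. Part of the reads of these copies cannot be assigned with certainty. Of the 75-base windows of the Trim34a transcripts, as long as the reads, 29.5% occur unchanged in Trim34b, and of those of Trim5, 12.4% occur in Trim12c and 20.6% in any other gene. For Trim12a, Trim30a and Trim30d only 5.25%, 4.98% and 5.40% of windows are shared, so most of their sequence is their own. The sources used here do not give the strain of either genotype, and whether the 2 genotypes carry different forms of this cluster was not tested.

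**Figure D2:**
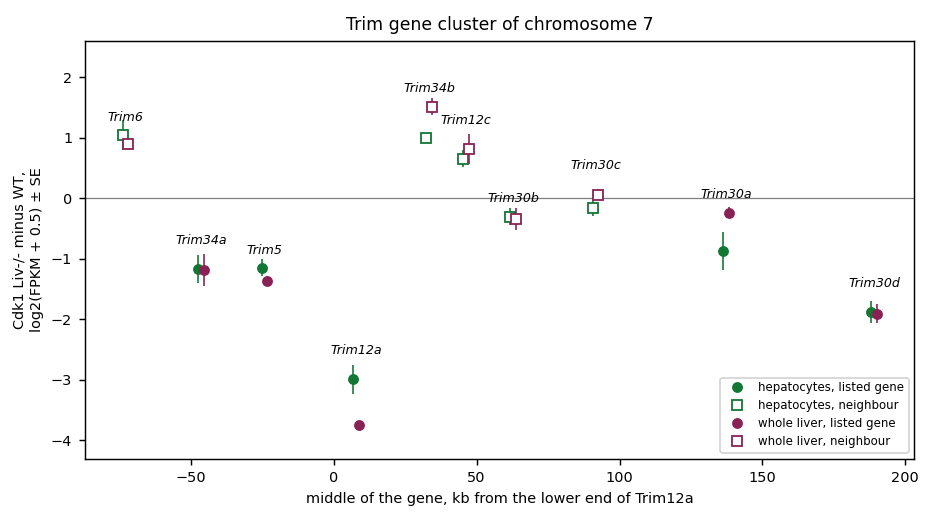
Difference between Cdk1 Liv-/- and WT in log2(FPKM + 0.5) ± SE (vertical) of 10 Trim genes against the middle of each gene in kilobases from the lower end of Trim12a (horizontal), in hepatocytes (green) and whole liver (purple). Filled circles are the 5 listed genes, all below 0, and open squares their neighbours, of which Trim6, Trim34b and Trim12c lie above 0 in both compartments.

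The 3 members that rose in hepatocytes at the adjusted p alone did so by less than a doubling. Psmb8, a catalytic subunit of the immunoproteasome, which cuts proteins into peptides for MHC class I, rose from 25.8, 22.7 and 20.6 to 33.4, 33.4 and 32.2 FPKM (0.52 ± 0.10, adjusted p = 0.0252, limma), the largest positive difference of any listed row there. Bst2, tetherin, which holds budding virions at the cell surface, rose from 68.0, 60.3 and 73.9 to 92.3, 80.6 and 86.8 (0.36 ± 0.10, adjusted p = 0.0714). Irf9, a DNA-binding subunit of the factor that type I interferon switches on, rose from 7.47, 6.87 and 8.21 to 9.86, 9.0 and 9.83 (0.33 ± 0.10, adjusted p = 0.0992). The genotypes did not overlap for any of the 3. The passes of Bst2 and Irf9 depended on the setting. Both were lost under median-ratio scaling (adjusted p = 0.117 and 0.16, limma), with the replicate block (0.115 and 0.194), without the filter on low values (0.127 and 0.106) and without the trend (0.105 and 0.101), and Irf9 also with a pseudocount of 1 (0.105). Leaving out 1 library ended the pass of Irf9 in all 6 fits (0.104 to 0.229) and that of Bst2 in 4 of 6 (0.157 to 0.165 in those 4), whereas Psmb8 passed in each of these alternatives.

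Of the members outside the TRIM genes, only these 3 passed the adjusted p in hepatocytes with all libraries and the settings above. In single reruns others passed: Psmb10 under median-ratio scaling, Psmb10 and Stat2 in the two-sample test with q-values. Ifit3 passed without WT hepatocyte replicate 2 and Irgm1 without WT hepatocyte replicate 3. Ifih1, the MDA5 sensor of long double-stranded RNA, had the second largest difference at 0.45 ± 0.20 (adjusted p = 0.200, limma), with 7.64, 5.85 and 5.58 FPKM in WT against 7.19, 11.4 and 8.31. Usp18, which removes ISG15 from proteins and blocks the type I receptor, followed at 0.43 ± 0.19 (adjusted p = 0.200), with 10.3, 7.99 and 9.2 against 15.4, 9.55 and 13.04. Neither passed, and their groups overlapped, though Usp18 passed without Cdk1 Liv-/- hepatocyte replicate 2 (0.61, adjusted p = 0.0784, limma). Of the 10 antiviral effectors 5 lay above and 5 below 0, with a median of -0.03. Of the 9 GTPase rows 7 lay below 0 with a median of -0.30, and none passed the test. Psmb10 (-0.25 ± 0.09, adjusted p = 0.150) and Psmb8, both immunoproteasome subunits, pointed in opposite directions. Markers of Kupffer, sinusoidal endothelial, stellate and B cells had lower Cdk1 Liv-/- hepatocyte means for all 9, all 7, all 6 and all 4 genes, endothelial sums running from 68.7 to 183 FPKM in WT and from 29.0 to 46.1 in Cdk1 Liv-/- libraries. Those of cholangiocytes and monocytes had higher means for all 4 and all 5 genes, cholangiocyte sums running from 1.14 to 1.41 and from 3.82 to 4.5. The sum of 7 hepatocyte markers was lower, at 51770 to 56290 against 78500 to 87110 FPKM, although 3 of the 7 had higher means. The part of these markers in the values above was not tested.

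**Figure D3:**
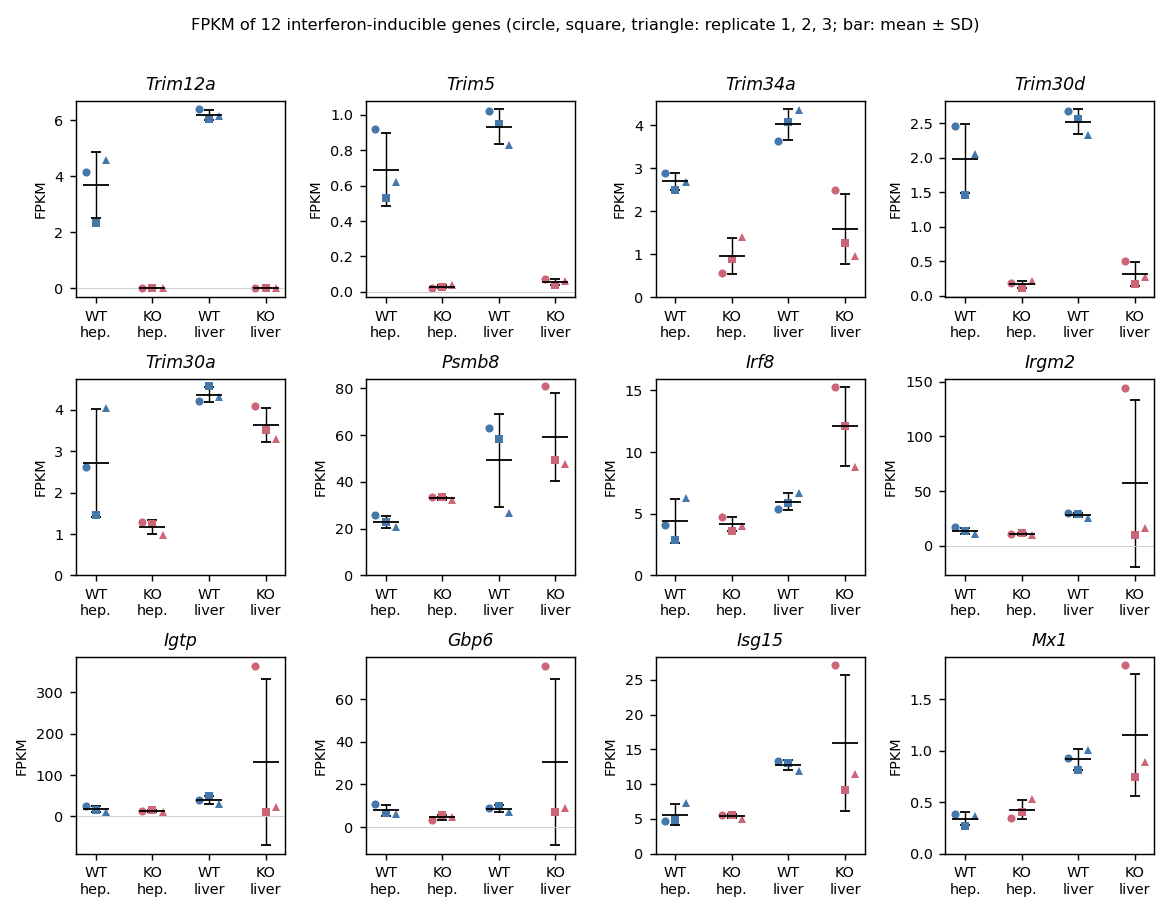
FPKM (vertical, each panel on its own scale) of 12 of the interferon-inducible genes in the 4 groups (horizontal; KO, Cdk1 Liv-/-; hep., hepatocytes); points are libraries, shaped by replicate, and bars the mean ± SD, n = 3 each. The upper row and Trim30a show the TRIM genes, and Irgm2, Igtp, Gbp6, Isg15 and Mx1 each have 1 high point, that of Cdk1 Liv-/- liver replicate 1.

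In whole liver, which holds all cell types of the organ, the same 4 TRIM genes were called lower and none of the 43 rows higher. Among all genes 4.59% were called higher and 1.00% lower. At the adjusted p alone 2 rows were higher, where 38.0% of all genes were, and 5 lower, where 7.53% were, and 7 rows had an unadjusted p below 0.05, as did 46.6% of all genes. The difference was positive for 33 rows, 76.7% of them, and for 73.1% of all genes, with a median of 0.19 against 0.18. Median-ratio scaling shifted the median of all genes in this comparison from 0.18 to 0.01 and that of the listed rows from 0.19 to 0.01, so the member median lay close to that of all genes under either scaling. Without Cdk1 Liv-/- liver replicate 1 the 2 medians parted, at -0.28 for the listed rows and 0.19 for all genes. They parted the other way without replicate 2 of that group (0.47 and 0.16) and without replicate 3 (0.38 and 0.19).

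The 2 members that rose at the adjusted p alone were Irf8 and Oas1a. Irf8, a transcription factor that macrophages and dendritic cells need for their development, rose from 5.35, 5.88 and 6.72 to 15.3, 12.2 and 8.82 FPKM (0.93 ± 0.20, adjusted p = 0.0194, limma). It was 0.75 without Cdk1 Liv-/- liver replicate 1 (adjusted p = 0.0334) and was called, at more than 1, without WT liver replicate 3 or without Cdk1 Liv-/- liver replicate 3. In hepatocytes Irf8 stood at 4.08, 2.87 and 6.32 in WT and at 4.75, 3.63 and 4.05 FPKM (-0.03 ± 0.27, adjusted p = 0.956). Oas1a, which makes the second messenger that turns on RNase L, rose from 3.05, 3.27 and 2.84 to 4.90, 3.43 and 4.73 (0.44 ± 0.14, adjusted p = 0.0580), but this pass was lost without Cdk1 Liv-/- liver replicate 1 (0.35, adjusted p = 0.136). It was also lost under median-ratio scaling (adjusted p = 0.272), with the replicate block (0.119), without the filter on low values (0.112), and without Cdk1 Liv-/- liver replicate 3 or any 1 of the WT liver libraries (0.103 to 0.151). Of the Oas1a windows 47.6% also occur in Oas1g, so its reads are uncertain. Markers of other cells also moved in whole liver: all 9 Kupffer cell, all 5 monocyte and all 4 dendritic cell markers of the conventional kind had higher Cdk1 Liv-/- means, monocyte sums running from 4.05 to 4.88 FPKM in WT and from 13.8 to 18.5 in Cdk1 Liv-/- liver. So had all 6 neutrophil, all 6 stellate, all 4 cholangiocyte and all 4 plasmacytoid dendritic cell markers. Of the hepatocyte markers 0 of 7 had, and of the B cell markers 0 of 4. Those of T and NK cells (3 of 8), endothelial cells (4 of 7) and erythroid cells (3 of 5) went both ways. The part of these markers in the Irf8 and Oas1a values was not tested.

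In whole liver 1 library stood apart. In Cdk1 Liv-/- liver replicate 1, 42 of the 43 rows were above the mean of the other 2 libraries of the group, the exception being Trim12a, and 24 were at least doubled on the log2(FPKM + 0.5) scale, where 0.978% of all tested genes were. The median ratio to that mean was 1.2 on the log2 scale for the members and -0.03 for all genes. This library held the highest of the 12 values for 36 of the 43 rows against 9.84% of all genes; the 7 others were the 5 TRIM genes, Bst2 and Oas2. In no other library was any of 43 rows doubled in this way, except WT hepatocyte replicate 3 with 3, where 3.85% of all tested genes were.

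The GTPases stood out most in that library. These large proteins, the guanylate-binding proteins (Gbp) and the immunity-related GTPases (Irgm1, Irgm2, Igtp, Iigp1), are strongly induced by interferon gamma. Igtp was 364 FPKM in Cdk1 Liv-/- liver replicate 1 against 10.0 and 23.0 in replicates 2 and 3 and 39.2, 49.8 and 29.98 in WT liver. Irgm2 was 144 against 9.71 and 16.6 in the other Cdk1 Liv-/- and 29.7, 29.0 and 25.6 in the WT libraries. Gbp6 was 75.7 against 7.29 and 9.11 in the other Cdk1 Liv-/- and 9.0, 10.1 and 7.05 in the WT libraries. Its whole liver difference by genotype was 0.97 ± 0.87 (adjusted p = 0.42, limma), and -0.08 without Cdk1 Liv-/- liver replicate 1 (adjusted p = 0.773). For Igtp and Irgm2 the other 2 Cdk1 Liv-/- libraries thus lay below all WT libraries while the first lay far above them.

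Gm43302, which shares 89.9% of its windows with Gbp6 and cannot be separated from it with certainty, was 26.1 FPKM against 0.71 and 1.38 in the other Cdk1 Liv-/- and 1.88, 2.56 and 0.75 in the WT libraries. Its whole liver difference by genotype was 0.91 ± 1.19 (adjusted p = 0.582, limma), and -0.47 without Cdk1 Liv-/- liver replicate 1 (adjusted p = 0.453). The ratio of replicate 1 to the mean of replicates 2 and 3 was 25 for Gm43302, 22.1 for Igtp, 10.99 for Irgm2, 9.23 for Gbp6, 7.63 for Gbp7, 6.40 for Irgm1, 6.07 for Gbp2, 5.49 for Iigp1 and 4.85 for Gbp3. Iigp1, the most abundant GTPase of the list, reached 618 FPKM there against 106 and 119 in the other 2. Igtp and Irgm2 overlap in the annotation, but only 7.80% of Igtp and 4.53% of Irgm2 windows are shared between them.

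The other roles followed at smaller ratios. Among transcription factors, Irf1 was 76.2 FPKM against 23.4 and 19.2, a ratio of 3.58, and Irf7, the factor that amplifies type I interferon, 35.3 against 9.78 and 15.7, a ratio of 2.77. The peptide transporter subunit Tap1 reached 74.2 against 19.0 and 16.8, a ratio of 4.14. Of the antiviral effectors, Ifit1, which binds RNA without a host cap, reached 8.45 against 1.73 and 2.64 (ratio 3.87), whereas Oas2 had a ratio of 1.15 and Bst2 one of 1.38. By role the median log2 ratio was 2.73 for GTPases, 1.21 for the other inducible genes (Ifi35, Ifi44, Xaf1 and Parp14), 1.2 for transcription factors, 1.16 for the ISG15 system, 1.01 for antigen processing, 0.91 for antiviral effectors, 0.67 for RNA sensors and 0.23 for TRIM genes.

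**Figure D4:**
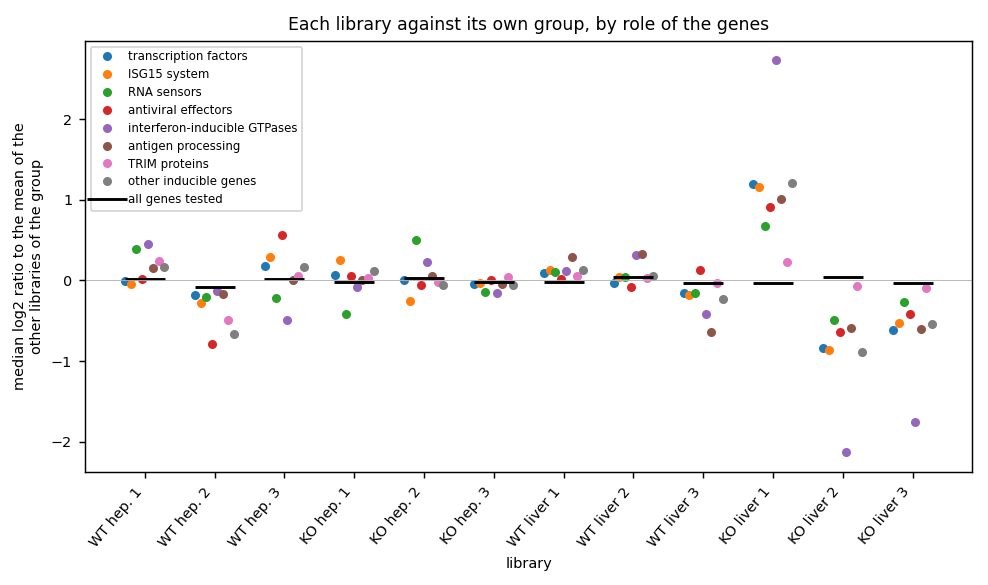
Median log2 ratio of each library to the mean of the other 2 libraries of its group, with 0.5 FPKM added to both (vertical), by library (horizontal; KO, Cdk1 Liv-/-; hep., hepatocytes), for the roles of the interferon-inducible genes (coloured points) and all tested genes (black bars). In Cdk1 Liv-/- liver replicate 1 the GTPases reach 2.73 and every role lies above the bar at -0.03.

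Ranked over all 17386 tested genes by this ratio, the 20 highest held 5 listed rows (Igtp, Gm43302, Irgm2, Gbp6 and Gbp7), 5 further genes of the pathway list (Tgtp1, Gbp10, Tgtp2 and Ifi47 among them) and 10 others, among them Gbp11 and BC023105. Tgtp1, a GTPase first found in T cells, was 467 against 13.2 and 16.6. Of the ligand genes, Ifng stood at 0.07 FPKM in this library, against 0.06 and 0.13 in the other 2. Such values are at the bottom of the measurable range, no ligand gene entered the tests, and a change in them could not be judged.

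Markers of other cells moved with it only in part. All 4 cholangiocyte markers were highest of the 12 libraries in Cdk1 Liv-/- liver replicate 1, with a sum of 20.98 FPKM against 8.15 and 11.8 in the other 2 and 3.38 to 5.11 in WT liver. Its T and NK cell marker sum (7.52 against 11.5 and 8.13), neutrophil sum (76.3 against 279 and 221) and Kupffer cell sum (583 against 789 and 616) were the lowest of the 3. Single markers were mixed: Cd3e (0.45 against 0.25 and 0.23) and Cd3d (0.50 against 0.35 and 0.40) were highest there. Cd3g and Gzma lay in the middle, and Nkg7, Klrb1c, Ncr1 and Trac were lowest. Of the Kupffer cell markers Timd4 was highest there, C1qa and C1qb lay in the middle, and the others were lowest. Their part in its interferon-inducible genes was not tested.

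Without that library 11 rows were lower and 1 higher at the adjusted p alone, where 7.45% and 35.6% of all genes were, and 15 had an unadjusted p below 0.05, as did 45.1% of all genes. By the rule with the fold threshold 6 were called lower (1.15% of all genes) and 0 higher (5.34% of all). The spread is then shared between the 3 WT and the 2 remaining libraries. The library was left out because the listed rows were high in it, so a downward shift of these rows follows from that choice. The p-values and counts of this fit are therefore no independent test of lower expression. The newly called genes were Irgm2, at -1.11 ± 0.23 (adjusted p = 0.0287, limma) against 0.04 ± 0.97 with the library, and Igtp, at -1.33 ± 0.40 (adjusted p = 0.0661) against 0.19 ± 1.29. Stat2 (-0.28), Usp18 (-0.32), Mx2 (-0.41), Ifi44 (-0.40) and Trim30a (-0.32) also passed the adjusted p, and Irf8 was the member that stayed higher. In this fit 33 of 43 rows instead of 10 lay below 0. All 9 GTPase rows were below 0 without the library and 8 of 9 above 0 with it.

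**Figure D5:**
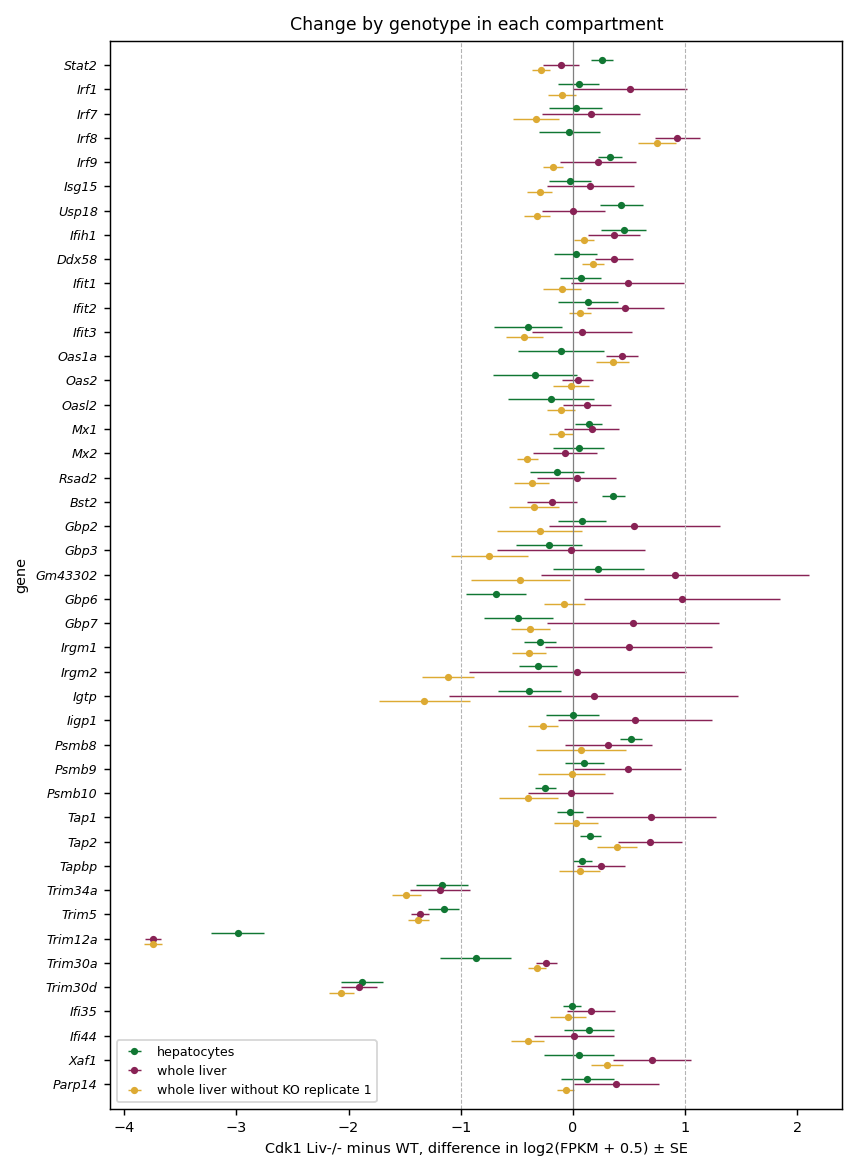
Difference between Cdk1 Liv-/- and WT in log2(FPKM + 0.5) ± SE (horizontal) of the 43 rows (vertical) in hepatocytes (green), whole liver (purple) and whole liver without Cdk1 Liv-/- replicate 1 (yellow); dashed lines mark -1 and 1. Trim12a, Trim5, Trim30d and Trim34a lie beyond -1 in all 3, and the wide purple bars of the GTPases shrink and move below 0 without the library.

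Whether a change differed between the compartments was tested as an interaction term, with the 12 libraries fitted together. None of the 43 rows passed the adjusted p in limma, where 2.35% of all genes changed more in the positive and 7.49% more in the negative direction in hepatocytes than in whole liver. An unadjusted p below 0.05 was found for 2 rows and for 23.6% of all genes. In the 8 reruns with other settings the count was also 0. It was 1 to 3 without one of 3 libraries: Irf9 and Stat2 passed without Cdk1 Liv-/- liver replicate 1, Trim12a without WT hepatocyte replicate 3, and Trim12a, Irf8 and Trim30a without WT hepatocyte replicate 2. In these fits 1.83%, 1.29% and 2.34% of all genes passed in the positive and 5.38%, 3.99% and 12.8% in the negative direction. The positive and negative shares of all genes also moved where no member passed. They were 3.15% and 2.83% under median-ratio scaling, 1.16% and 2.62% with the replicate block and 0.201% and 0.247% without WT liver replicate 1. The largest differences were 0.76 ± 0.26 for Trim12a (adjusted p = 0.114, limma) and 0.55 ± 0.25 for Bst2 (0.221), and the lowest -1.66 ± 0.96 for Gbp6 (0.324) and -1.02 ± 0.86 for Gbp7 (0.518). Trim12a was at the bottom of the measurable range in both Cdk1 Liv-/- groups, so its value mostly repeats its difference between the WT compartments (0.72). Leaving out 1 library gave -2.25 to -0.61 for Gbp6 and -1.56 to -0.11 for Gbp7, so these sizes and their rank depend on single libraries. In hepatocytes Gbp6 stood at 10.8, 6.84 and 5.94 FPKM in WT and 3.44, 5.89 and 4.59 in Cdk1 Liv-/- libraries, and Gbp7 at 4.80, 2.41 and 2.37 and at 1.43, 2.61 and 2.18. In whole liver Bst2 stood at 108, 127 and 84.8 in WT and 115, 70.9 and 96.4 FPKM, with overlapping groups.

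In WT mice the differences between whole liver and isolated hepatocytes mostly pointed to higher values in whole liver, but few passed the test. All 43 were above 0, where 68.1% of all genes were, though Ddx58 and Ifih1 were not under median-ratio scaling, nor was Ddx58 without WT hepatocyte replicate 2 or 3. The median was 0.70 against 0.10. For 28 of the 43 rows every whole liver library lay above every hepatocyte library, which held for 20.7% of all genes. Called higher were 2 rows, Isg15 and Irgm2, against 0.426% of all genes, and called lower 0, against 0.0403%. At the adjusted p alone 5 were higher (1.42% of all) and 0 lower (0.104%), and 27 rows had an unadjusted p below 0.05, as did 18.8% of all genes. Isolation of the cells and loss of the other cell types cannot be told apart in this comparison.

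Isg15 stood at 13.3, 13.1 and 11.9 FPKM in WT liver and at 4.68, 4.78 and 7.31 in WT hepatocytes (1.15 ± 0.17, adjusted p = 0.0840, limma). Irgm2 stood at 29.7, 29.0 and 25.6 against 16.8, 13.4 and 10.9 (1.03 ± 0.16, adjusted p = 0.0840). Irf1, Irf9 and Mx1, a dynamin-like inhibitor of influenza viruses, passed the adjusted p with differences of 0.77, 0.71 and 0.75. These 3 passes were lost with the replicate block (adjusted p = 0.183, 0.183 and 0.192) and without any 1 of WT hepatocyte replicates 1 and 2 and WT liver replicates 1 and 2 (0.18 to 0.261), those of Irf9 and Mx1 also without WT liver replicate 3 (0.147 and 0.153) and under median-ratio scaling (0.101 and 0.104). The 2 calls depended on the setting too. The count was 0 under median-ratio scaling, without a filter on low values, with the replicate number as a block and without any of 4 single libraries. The share of all genes called higher fell there too, to 0.213%, 0.139% and 0.00% under the 3 settings and to 0.00% to 0.155% without those libraries. The count was 9, all higher, once WT hepatocyte replicate 3 was left out, when the share of all genes called higher also rose, from 0.426% to 2.71%. Leaving out WT liver replicate 3 gave 2 calls of other genes, Psmb8 and Psmb10, where 0.173% of all genes were called higher. WT hepatocyte replicate 3 held the highest macrophage marker sum of the hepatocyte libraries and, within WT hepatocytes, the highest Oas1a, Oas2, Oasl2, Ifit3, Irf7 and Xaf1, but also the lowest values of 7 of the 9 GTPase rows, whose median log2 ratio to the other WT hepatocyte libraries was -0.49.

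The largest compartment differences were those of Gbp3 and Gbp2, which did not pass the test, although Gbp3 was called higher without WT hepatocyte replicate 3. In both genes WT liver replicate 3 stood below the other WT liver libraries. Gbp3 was 11.66, 10.8 and 5.47 FPKM in WT liver against 3.60, 1.56 and 3.58 in WT hepatocytes (1.52 ± 0.38, adjusted p = 0.153, limma). Gbp2 was 15.8, 12.5 and 6.45 against 4.86, 2.84 and 4.22 (1.38 ± 0.35, adjusted p = 0.154). At the other end the RNA sensors hardly differed. Ddx58, which encodes RIG-I, was 9.17, 9.02 and 7.93 against 10.2, 7.51 and 7.80 (0.04 ± 0.13, adjusted p = 0.882), and Ifih1 7.24, 6.93 and 6.47 against 7.64, 5.85 and 5.58 (0.12 ± 0.13, adjusted p = 0.631). By role the median difference was 1.03 for GTPases, 0.87 for antigen processing, 0.83 for the ISG15 system, 0.73 for antiviral effectors, 0.71 for transcription factors, 0.58 for the other inducible genes, 0.50 for TRIM genes and 0.08 for RNA sensors.

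Of the 88 further genes of the pathway, 77 entered the tests. Upstream, 8 of the 11 interferon ligand genes, Ifnb1 and 4 Ifna genes among them, were listed at 0 in all 12 libraries, and Ifng did not exceed 0.13 FPKM, Ifnk 0.12 and Ifnz 0.09. None of them entered the tests. In hepatocytes 3 of the 77 were called higher, where 4.20% of all genes were, and 1 lower, where 2.17% were, and at the adjusted p alone 9 were higher (12.1% of all) and 4 lower (6.61% of all). In whole liver 5 were called higher (4.59% of all) and 0 lower (1.00% of all), and at the adjusted p alone 29 were higher (38.0% of all) and 0 lower (7.53% of all).

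Cxcl10, a chemokine induced by interferon and by NF-kappaB that attracts T cells, was the leading one. It rose from 3.89, 2.99 and 3.57 to 12.99, 17.6 and 15.1 FPKM in hepatocytes (1.98 ± 0.15, adjusted p = 0.00193, limma) and from 6.64, 6.84 and 5.59 to 65.2, 43.6 and 25.5 in whole liver (2.63 ± 0.33, adjusted p = 0.00432). Socs3, an inhibitor of Janus kinases, rose by 1.12 ± 0.33 and 1.81 ± 0.14 (adjusted p = 0.0811 and 0.00118, limma), and Ikbke, a kinase that activates IRF3, by 1.10 ± 0.17 and 1.30 ± 0.10 (adjusted p = 0.0146 and 0.00112). Without Cdk1 Liv-/- liver replicate 1 the whole liver differences were 2.31 for Cxcl10, 1.78 for Socs3 and 1.23 for Ikbke, and all 3 were still called. In hepatocytes the GTPase Tgtp2 fell from 1.80, 1.53 and 2.09 to 0.44, 0.73 and 0.34 FPKM (-1.21 ± 0.19, adjusted p = 0.0154). In whole liver Oasl1, a translational inhibitor of Irf7, rose by 1.06 ± 0.23 (adjusted p = 0.0190, limma) and Gbp8 by 1.28 ± 0.41 (adjusted p = 0.0591). Without Cdk1 Liv-/- liver replicate 1 Gbp8 was 0.80 and Oasl1 0.88, and neither was called, while Tgtp1 (-1.03), Tgtp2 (-1.18) and Gbp10 (-1.40) were among those called lower and Ifitm1 (1.03) higher. Tgtp1, Tgtp2 and Gbp10 were also high in that library, so their calls carry the limit given above for this fit. Among receptors and kinases of the interferon pathway all 9 differences in whole liver were above 0, as were 73.1% of all genes, and 7 passed the adjusted p, as did 38.0% of all genes, Ifngr2 and Ifnlr1 with the largest at 0.82 each (adjusted p = 0.00491 and 0.00198, limma). Without Cdk1 Liv-/- liver replicate 1 all 9 were again above 0 and the same 7 passed.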

How the data were processed

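The 12 libraries were stranded poly(A) libraries (TruSeq) read as single ends of 75 bases. The deposited values are FPKM, which the authors computed with RSEM 1.2.31 after alignment with STAR to mm10, per the labels' processing notes; for the annotation release and the STAR version, no source used here gives a name. No counts were used, so the depth of each library is an estimate. Members and lists were chosen with earlier results of these data known. The study's significance threshold of 0.1 and pseudocount of 0.5 were kept and genes with a mean under 0.1 FPKM left out, but its two-sample test was replaced by limma 3.58.1 (R 4.3.3; empirical Bayes with a trend, two-sided, Benjamini-Hochberg over 17386 genes) on log2(FPKM + 0.5), within each compartment and, for the interaction, over all 12 libraries. The pipeline was tested on simulated data. Samples were grouped by their titles. Named in full are the 3 largest and the 3 smallest differences by genotype, the 2 largest and the 2 smallest between compartments, every member past the adjusted p, and called pathway genes. Alternatives were other pseudocounts (0.1 and 1), filters, scalings, no trend, the study's test with q-values, a replicate block and leaving out each library. FPKM is relative to the total, so a rise in some genes lowers the others. Gene positions come from GENCODE M21 (GRCm38). The result of 1 gene of the pathway list is not reported here.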

Additional observations from a re-analysis of the deposited data

Results flagged for a closer look

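No listed gene changed differently in the 2 compartments by the interaction test (limma, adjusted p at most 0.1), but 5 of 77 further genes of the pathway did, 1 in the positive direction, where 2.35% of all genes passed, and 4 in the negative, where 7.49% did, so in this fit they do not exceed the background. That background moved with the setting. Its negative share was 2.83% under median-ratio scaling, 2.62% with the replicate block and 0.247% without WT liver replicate 1. The counts of pathway genes in those fits are not given here. The values below are the change in hepatocytes minus the change in whole liver on the log2(FPKM + 0.5) scale. Ifngr1, a chain of the interferon gamma receptor, had a difference of -0.85 ± 0.19 (adjusted p = 0.0529). Il10rb, a chain of the interferon lambda receptor, had one of -1.21 ± 0.37 (adjusted p = 0.0948). Socs1, a feedback inhibitor of the pathway, had one of -1.13 ± 0.32 (adjusted p = 0.0787). Tmem173, the adaptor STING, had one of -1.25 ± 0.40 (adjusted p = 0.0990). Mavs, the adaptor of the RNA sensors, had one of 0.47 ± 0.15 (adjusted p = 0.0993). The median over all genes was -0.11, and Kupffer cell marker sums were lower in Cdk1 Liv-/- than in WT means in hepatocytes and higher in whole liver for all 9 markers, whose part in these differences was not tested. No group had the 4 libraries needed for a test of outlying samples.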

How the results depend on the processing

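Correlations of the deviations of same-numbered libraries ran from -0.317 to 0.239. Differently numbered libraries were not compared, so these values cannot decide whether the replicate numbers pair anything. The replicate block left 4 called members in each genotype comparison and 0 in the interaction but 0 between the WT compartments. There the count of 2 was also 0 without a filter on low values and under median-ratio size factors, and 1 with the same sum in every library. In hepatocytes it was 2 with a pseudocount of 1. Leaving out 1 library gave 3 to 5 called members in hepatocytes, 4 to 6 in whole liver, 0 to 3 for the interaction and 0 to 9 between WT compartments; the causes were not tested. Under median-ratio size factors Irgm2 and Igtp in whole liver turned to -0.18 and -0.03, and Ddx58 and Ifih1 between WT compartments to -0.08 and -0.002. Leaving out 1 library gave -1.11 to 0.80 for Irgm2, -1.33 to 1.23 for Igtp, -0.47 to 1.76 for Gm43302 and -0.08 to 1.57 for Gbp6 in whole liver, and -0.04 to 0.17 for Ddx58 between compartments. Of 503 rerun values of named members 416 kept direction and side of the threshold, 72 lost and 4 gained significance and 11 reversed. The two-sample test with q-values was run for the genotype comparisons only. Low members rest on few reads, an estimated 35.5 to 293 for Mx1.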
